A study of Mus musculus with 2 samples.

Results

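The genes described here encode the nuclear-made parts of the oxidative phosphorylation system of mitochondria, with complex I assembly factors and cytochrome c. They were chosen by name from a table of 54532 genes: protein-coding rows whose symbol begins with Nduf, Uqcr, Atp5 or Cox4 to Cox8, or is Sdha, Sdhb, Sdhc, Sdhd, Cyc1, Cycs or Cyct. This gave 97 rows with 96 symbols, since Atp5o stood on 2 rows. Of these rows, 79 were general subunits, 8 complex I assembly factors, 4 germ cell isoforms, 5 other tissue isoforms and 1 a factor of complex V, Atp5s. Levels are the deposited FPKM, fragments per kilobase of gene length times a factor for each library. A gene is called measured where its mean over both libraries is 1 FPKM or more.

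Oxidative phosphorylation moves electrons from NADH and succinate to oxygen and uses the energy to make ATP. Complex I takes electrons from NADH and complex II from succinate, complex III passes them to cytochrome c, complex IV hands them to oxygen, and complex V is the ATP synthase. Complexes I, III, IV and V also hold subunits encoded by mitochondrial DNA, so both genomes must supply parts. Several complex IV subunits and cytochrome c exist as gene pairs, with a general gene and one used in testis, in striated muscle and brown fat, or under low oxygen.

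RNA was sequenced from mouse samples labelled as adipose, 1 library from a Trappc9 knockout (KO) and 1 from the wild type (WT). Trappc9 encodes a subunit of a vesicle-tethering complex. The design text describes 3 KO and 3 WT mice of 3 to 4 weeks whose abdominal fat pads went through collagenase digestion, after which the pelleted cells were lysed. The titles name adipose-derived stem cells, and the extraction label names flash-frozen pads. Strain, sex, the knockout allele and whether mice were pooled are not given in the sources used here. With 1 library per genotype no difference has a replicate check and no p-value is given. Each KO over WT ratio carries an exact 95% Clopper-Pearson interval from the fragments recovered from FPKM and gene length, and these intervals cover counting error only. "Higher" and "lower" below mean that this interval excluded 1.

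Depth was 14783728 fragments in the library labelled KO and 13705193 in that labelled WT. Trappc9 stood at 12.6 FPKM in the library labelled KO and 9.94 FPKM in that labelled WT, a gene-level value that goes against a loss, though the deleted part is not known. Every direction below therefore rests on the labels, and the libraries are called by them. Adipocyte markers were low, with 7 of 9 measured and a sum of 68.8 FPKM in the library labelled KO and 68.0 FPKM in that labelled WT. Adipoq was at 0.506 FPKM in the library labelled KO and 2.30 FPKM in that labelled WT, and Lep had 4 and 3 fragments in the libraries labelled KO and WT. The 10 markers of adipose progenitors summed to 209 FPKM in the library labelled KO and 234 FPKM in that labelled WT, and all were measured. The 15 markers of the epididymis, where sperm mature, summed to 30869 FPKM in the library labelled KO and 22684 FPKM in that labelled WT. Spermatid and spermatocyte markers were also detected and are given with the germ cell isoforms. In bulk samples, fewer cells of a type and less RNA per cell cannot be told apart.

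The members together took 0.758% of the fragments in the library labelled KO (95% Clopper-Pearson interval 0.753% to 0.762%) and 0.749% in that labelled WT (0.744% to 0.753%). Of the 97 rows, 94 were measured. The 3 that were not were Cox8b, Cox6a2 and the second Atp5o row, which had 0 fragments in both libraries, allowing up to 0.396 FPKM in the library labelled KO and 0.3996 FPKM in that labelled WT. Just outside the limit Cox6a2 had a mean of 0.103 FPKM, and just inside it Cox7b2 had 1.56 FPKM.

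Levels differed far more between genes than between libraries. Among general subunits, complex IV stood highest, with a median level of 83.9 FPKM in the library labelled KO and 77.1 FPKM in that labelled WT. Complex III had a median of 49.0 FPKM in the library labelled KO and 45.4 FPKM in that labelled WT, and complex V 47.3 FPKM in the library labelled KO and 38.7 FPKM in that labelled WT. Complex II had a median of 43.6 FPKM in the library labelled KO and 41.6 FPKM in that labelled WT, and complex I 31.4 FPKM in the library labelled KO and 33.0 FPKM in that labelled WT. The highest FPKM as deposited was that of Cox8a, a small membrane subunit of complex IV, at 299.9 FPKM in the library labelled KO and 276 FPKM in that labelled WT. In complex V the highest was Atp5a1, the F1 alpha subunit, at 191 FPKM in the library labelled KO and 185 FPKM in that labelled WT. The plot of levels by complex shows that ranges overlapped between complexes.

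**Figure D1:**
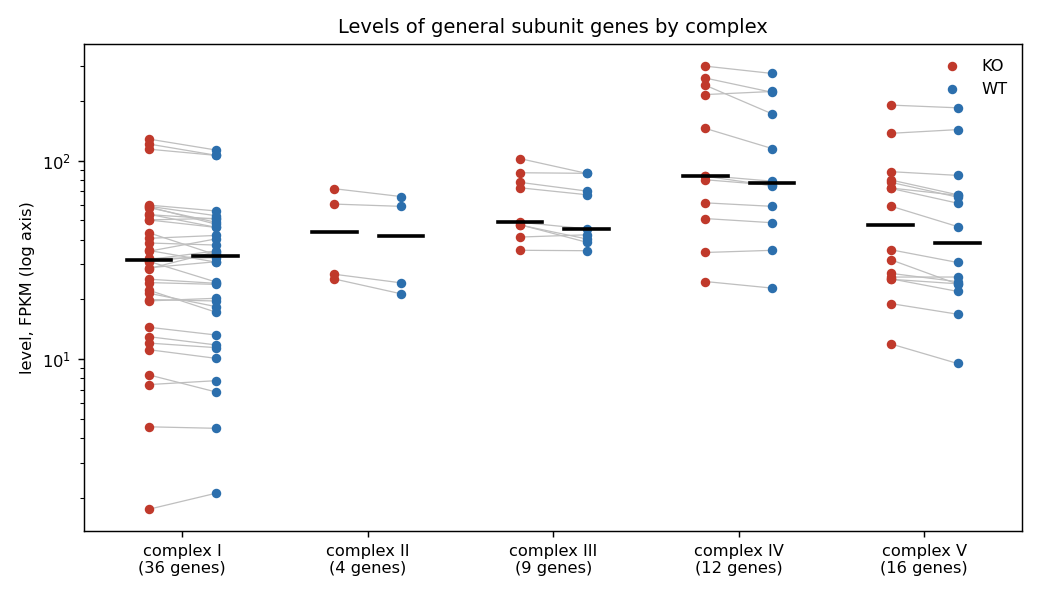
Level in FPKM (log axis) of each measured general subunit gene in the library labelled KO (left, red) and that labelled WT (right, blue), by complex, with grey lines joining 1 gene and black bars at the medians. Each complex spans a wide range of levels, with medians from 31.4 to 83.9 FPKM in the library labelled KO and from 33.0 to 77.1 FPKM in that labelled WT, and lines are close to flat.

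Part of the range of levels followed the length by which the authors divided. Ndufb2, a small complex I subunit, was the lowest general subunit at 1.75 FPKM in the library labelled KO and 2.11 FPKM in that labelled WT, from 141 and 168 fragments in the libraries labelled KO and WT over a gene length of 5628 bases. Its shortest principal transcript in the GENCODE M21 annotation has 455 bases, over which the same fragments give 21.7 in the library labelled KO and 26.1 in that labelled WT, in the same unit. Across the 78 measured general subunits, cytochrome c (Cycs) included, the highest level was 171 times the lowest in the library labelled KO and 131 times in that labelled WT as deposited, and 46.1 times in the library labelled KO and 47.6 times in that labelled WT per principal transcript. With principal lengths the order of the top complexes changed: complex IV had a median of 212 in the library labelled KO and 171 in that labelled WT, followed by complex V with 155 in the library labelled KO and 139 in that labelled WT. Complex III then had 88.5 in the library labelled KO and 88.1 in that labelled WT, ahead of complex II with 62.4 in the library labelled KO and 56.8 in that labelled WT, and complex I with 57.4 in the library labelled KO and 52.9 in that labelled WT. The order within complexes changed too, with Cox4i1 the highest in complex IV at 544 in the library labelled KO and 461 in that labelled WT. The plain FPKM ratio between libraries does not depend on this length, whereas log2 ratios with 1 FPKM added do for low genes.

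Between libraries, members differed by small amounts. Of the 94 measured members, 35 were higher and 8 lower in the library labelled KO. That is 37.2% and 8.51%, against 24.6% and 17.6% of all 13084 measured protein-coding genes. The share of higher genes depends on abundance: with a limit of 20 FPKM on the mean, chosen after the data were seen, 32 of 64 members (50%) were higher, against 46.0% of all genes at that level, and 4.69% were lower, against 16.1%. With TPM, 6.38% of members and 7.81% of all genes were higher, while 34.04% of members and 45.4% of all genes were lower. For TPM shares and medians, here and below, all genes are the 14884 protein-coding genes measured on that scale. All 35 higher members were general subunits. None reached 2-fold higher, against 0.948% of all genes, and 1, Cox6b2, was at least 2-fold lower, against 0.29%.

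On the scale of log2((KO + 1)/(WT + 1)), the measured members had a median ratio of 0.09, against 0.02 for all measured protein-coding genes. The sign of this median depended on the scaling between libraries: rescaled to TPM, it was −0.11. That scaling shifted the median of all genes by −0.19, and relative to all genes the members stood at 0.06 on both scales. With the limit of 20 FPKM this offset was 0.032, and 0.0035 for complex I. The members that were higher under every scaling tried numbered 6, namely Cox7a2l, Cox6b1, Atp5mpl, Atp5e, Ndufa6 and Ndufv3. All 8 members that were lower stayed lower under every scaling, but this was fixed in advance. Each other scaling moved KO down against WT, by −0.022 to −0.20 in log2, so no lower call could be lost. The 8 lower members were Cyct, Cox6b2, Cox8c, Ndufb3, Ndufa13, Ndufaf4, Ndufaf6 and Atp5b, of which Ndufaf4, Ndufaf6 and Atp5b are named after their values were seen. The plot of ratios by gene sets these 14 beside the rest.

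**Figure D2:**
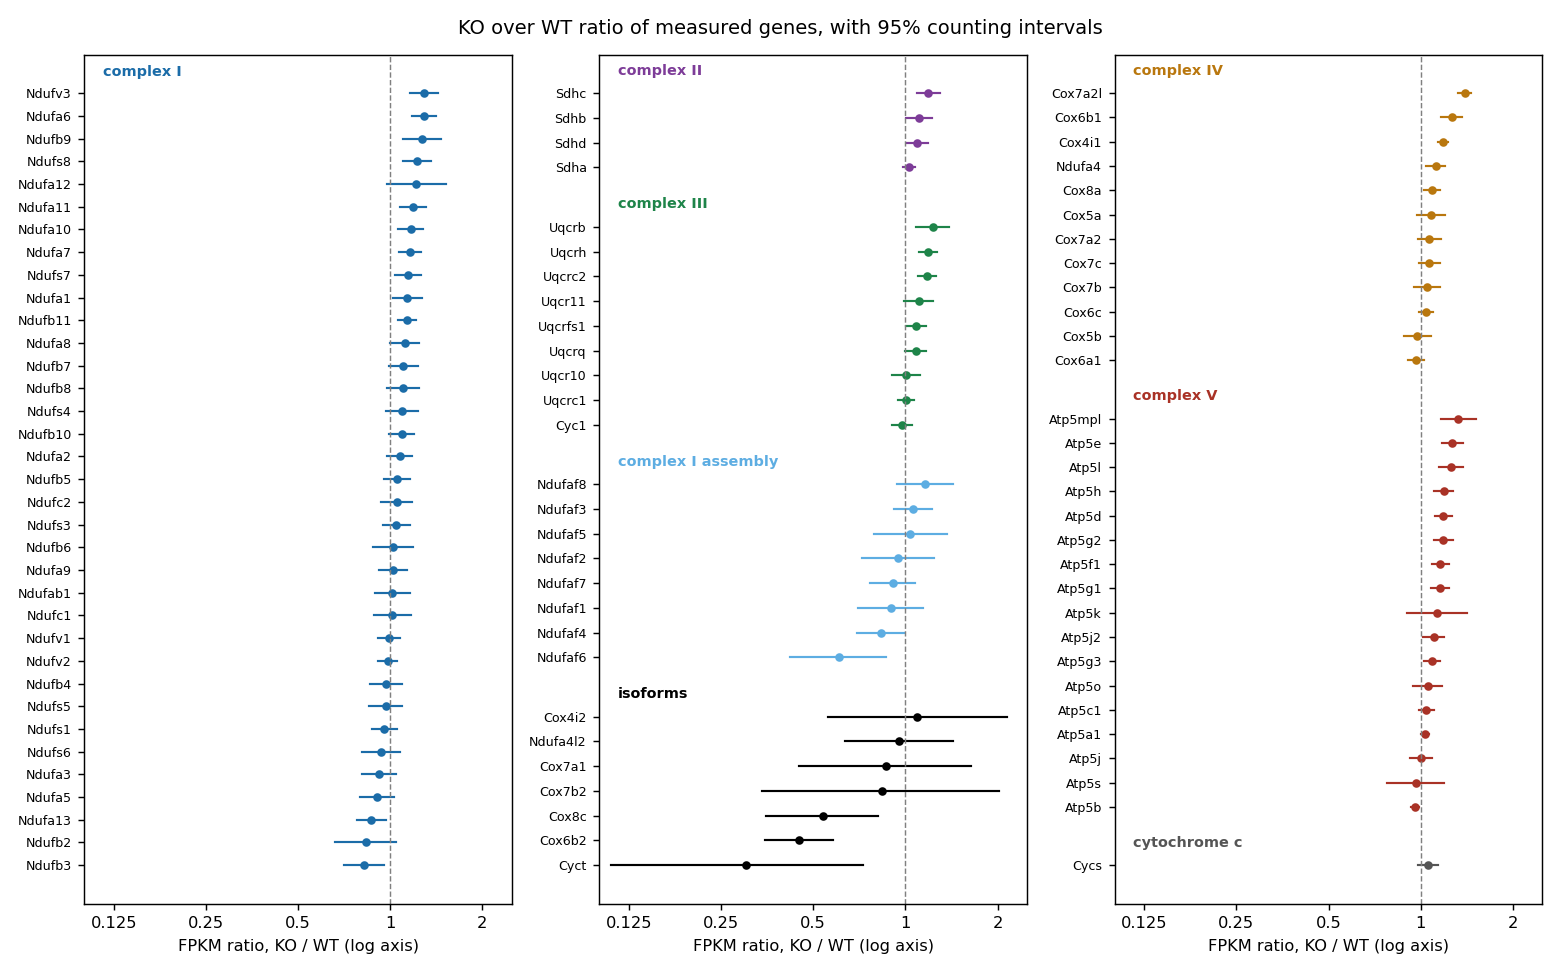
KO over WT ratio of FPKM (log axis) of 93 of the 94 measured genes, with its 95% counting interval, grouped by complex; Atp5s, a factor rather than a subunit, is drawn with complex V, and the dashed line marks a ratio of 1. As deposited, most points lie just right of 1, while Cyct, Cox6b2 and Cox8c lie well to the left with intervals that do not reach it.

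Complex I is built from catalytic core subunits, which carry the NADH site and iron-sulfur clusters, and many supernumerary subunits around them. Among the core genes, Ndufs8 was at 58.6 FPKM in the library labelled KO and 47.9 FPKM in that labelled WT, a ratio of 1.22 (interval 1.10 to 1.36), but its interval included 1 after rescaling to TPM (log2 ratio 0.086). Ndufs7 was at 35.3 FPKM in the library labelled KO and 30.9 FPKM in that labelled WT, higher as deposited but with a log2 ratio of −0.0074 after rescaling to TPM. The following 4 core genes had intervals that included 1. Ndufs1, the largest iron-sulfur subunit, was at 7.44 FPKM in the library labelled KO and 7.79 FPKM in that labelled WT. Its gene overlaps Eef1b2 on the opposite strand, which stood at 138 FPKM in the library labelled KO and 122 FPKM in that labelled WT. Ndufs3 was at 25.3 FPKM in the library labelled KO and 24.1 FPKM in that labelled WT. The flavoprotein genes Ndufv1, at 32.2 FPKM in the library labelled KO and 32.5 FPKM in that labelled WT, and Ndufv2, at 50.3 FPKM in the library labelled KO and 51.2 FPKM in that labelled WT, were close to equal.

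Among the 29 supernumerary complex I subunits, 9 were higher and 2 lower as deposited, or 31.0% and 6.90%, against 24.6% and 17.6% of all genes. The shares over all genes were 46.0% and 16.1% at a mean of at least 20 FPKM, which not all 29 reached. After rescaling to TPM 2 of the 29 were higher and 9 lower, or 6.90% and 31.0%, where the shares over all genes were 7.81% and 45.4%. Ndufa6 was at 43.4 FPKM in the library labelled KO and 33.6 FPKM in that labelled WT, a ratio of 1.29 (1.18 to 1.41). Ndufv3 had 22.3 FPKM in the library labelled KO and 17.3 FPKM in that labelled WT, also a ratio of 1.29 (1.16 to 1.44). In the other direction, Ndufb3 had 28.6 FPKM in the library labelled KO and 34.8 FPKM in that labelled WT, a ratio of 0.822 (0.705 to 0.957). Ndufa13 was at 34.98 FPKM in the library labelled KO and 40.4 FPKM in that labelled WT, a ratio of 0.867 (0.778 to 0.967). Ndufa13 overlaps the spermatid kinase gene Tssk6 on the opposite strand, which stood at 6.28 FPKM in the library labelled KO and 2.27 FPKM in that labelled WT. Ndufa5, at 31.8 FPKM in the library labelled KO and 35.1 FPKM in that labelled WT, had an interval that included 1. Ndufb11 had the highest deposited FPKM of complex I, with 129 FPKM in the library labelled KO and 113 FPKM in that labelled WT.

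The 8 assembly factors of complex I, which help build it and are not part of the finished enzyme had a median log2 ratio of −0.09, which was −0.022 with a filter at 5 FPKM. None was higher and 2 (25%) were lower, against 17.6% of all genes, and after rescaling to TPM 4 (50%) were lower, against 45.4%. Ndufaf6 was at 2.94 FPKM in the library labelled KO and 4.86 FPKM in that labelled WT, from 52 and 85 fragments, a ratio of 0.606 (0.421 to 0.865). Ndufaf4 was at 4.25 FPKM in the library labelled KO and 5.10 FPKM in that labelled WT, a ratio of 0.832 (0.697 to 0.993). Ndufaf1 had 6.05 FPKM in the library labelled KO and 6.77 FPKM in that labelled WT, with an interval that included 1. Their levels were low, from 2.61 to 16.4 FPKM in the library labelled KO and from 2.75 to 14.7 FPKM in that labelled WT. Whether assembly factors and subunits differ in their ratio was not tested.

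Complex II, which is also an enzyme of the citric acid cycle, had 3 of its 4 genes (75%) higher as deposited, against 24.6% of all genes. At a mean of at least 20 FPKM, which all 4 reached, 46.0% of all genes were higher. After rescaling to TPM 0 of the 4 were higher and 1 lower (25%), where the shares over all genes were 7.81% and 45.4%. Sdhc, a membrane anchor, was at 25.4 FPKM in the library labelled KO and 21.4 FPKM in that labelled WT, a ratio of 1.19 (1.09 to 1.29). The other anchor, Sdhd, was at 72.3 FPKM in the library labelled KO and 66.0 FPKM in that labelled WT. The iron-sulfur subunit Sdhb was at 26.8 FPKM in the library labelled KO and 24.2 FPKM in that labelled WT. The flavoprotein Sdha, at 60.5 FPKM in the library labelled KO and 58.9 FPKM in that labelled WT, had an interval that included 1.

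In complex III 4 of 9 genes were higher and none lower as deposited, or 44.4% higher. Of all genes 24.6% were higher and 17.6% lower. At a mean of at least 20 FPKM, which all 9 reached, these shares were 46.0% and 16.1%, so 44.4% was near the share over all genes. After rescaling to TPM 0 of the 9 were higher and 3 (33.3%) lower, where the shares over all genes were 7.81% and 45.4%. Uqcrh, the hinge protein next to cytochrome c1, had the highest deposited FPKM, with 103 FPKM in the library labelled KO and 86.4 FPKM in that labelled WT, a ratio of 1.19 (1.11 to 1.27). Uqcrc1, a core protein, had the lowest deposited FPKM, 35.4 in the library labelled KO and 35.2 in that labelled WT, whereas per principal transcript Cyc1, which encodes cytochrome c1, was the lowest. Cytochrome c itself, Cycs, carries electrons from complex III to complex IV and stood at 27.0 FPKM in the library labelled KO and 25.6 FPKM in that labelled WT, with an interval that included 1.

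Of the 12 general genes of complex IV, 5 were higher and none lower as deposited, or 41.7% higher. Of all genes 24.6% were higher and 17.6% lower. At a mean of at least 20 FPKM, which all 12 reached, these shares were 46.0% and 16.1%, so 41.7% was not above the share over all genes. After rescaling to TPM 2 of the 12 (16.7%) were higher and 3 (25%) lower, where the shares over all genes were 7.81% and 45.4%. Ndufa4 is counted here, since its protein belongs to complex IV despite the name. Cox7a2l, which encodes a factor that joins complexes III and IV into supercomplexes, had the highest ratio of all members. It stood at 240.3 FPKM in the library labelled KO (3943 fragments) and 172 FPKM in that labelled WT (2801 fragments), a ratio of 1.39 (1.33 to 1.46). Cox6b1, at 146 FPKM in the library labelled KO and 115 FPKM in that labelled WT, had a ratio of 1.26 (1.17 to 1.37). Cox4i1 was at 261 FPKM in the library labelled KO and 221 FPKM in that labelled WT. Cox6a1, another abundant gene, was at 216 FPKM in the library labelled KO and 223 FPKM in that labelled WT, with an interval that included 1. Cox5a, with the lowest deposited FPKM of the complex, was at 24.6 FPKM in the library labelled KO and 22.8 FPKM in that labelled WT.

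Complex V had 11 of 16 measured genes higher and 1 lower as deposited, or 68.8% and 6.25%. Of all genes 24.6% were higher and 17.6% lower, and at a mean of at least 20 FPKM 46.0% and 16.1%. After rescaling to TPM 2 of the 16 (12.5%) were higher and 4 (25%) lower, where the shares over all genes were 7.81% and 45.4%. The median log2 ratio of complex V, 0.19, was the highest of the complexes and became −0.0073 with TPM, again the highest. The subunits of the catalytic F1 head did not move alike. Atp5b, the catalytic beta subunit, was lower at 138 FPKM in the library labelled KO and 144 FPKM in that labelled WT, a ratio of 0.958 (0.929 to 0.987). Atp5e, the small epsilon subunit, was higher at 59.1 FPKM in the library labelled KO and 46.6 FPKM in that labelled WT, a ratio of 1.27 (1.17 to 1.37). Atp5mpl, a small membrane subunit, was at 31.7 FPKM in the library labelled KO and 23.9 FPKM in that labelled WT, a ratio of 1.33 (1.17 to 1.51). Atp5l, another membrane subunit, had the lowest deposited FPKM of the complex, 11.9 in the library labelled KO and 9.51 in that labelled WT, whereas per principal transcript Atp5k was the lowest. All 3 genes of the c-ring, the rotor that protons turn, encode the same mature protein and were higher as deposited, against 0 higher and 0 lower after rescaling to TPM. Atp5g1 made 14.9% of their summed FPKM in the library labelled KO and 14.6% in that labelled WT, Atp5g2 42.5% in the library labelled KO and 40.7% in that labelled WT, and Atp5g3 42.7% in the library labelled KO and 44.6% in that labelled WT. The makeup of the c-ring transcripts was thus close to the same in both libraries. How the 3 genes rank against each other rests on the deposited gene lengths. Per principal transcript Atp5g1 had 209 in the library labelled KO and 181 in that labelled WT. Atp5g2 then had 276 in the library labelled KO and 232 in that labelled WT, and Atp5g3 223 in the library labelled KO and 205 in that labelled WT.

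Higher ratios went with shorter transcripts to a small degree. Spearman's rho between log2 ratio and principal transcript length was −0.20 across the 78 general subunits and −0.12 across 13060 protein-coding genes, where genes are not independent replicates and share both libraries. General subunits with a principal transcript of at most 1000 bases had a median log2 ratio of 0.13 (50 genes), against 0.11 for the 1175 protein-coding genes of that length. Those over 1000 bases had 0.07 (28 genes), against 0.02 for 11885 genes. The part of transcript length in the ratios was not tested.

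The germ cell isoforms stood apart by the size of their ratios. Cyct (ENSMUSG00000056436, chromosome 2, 76353942 to 76360450, mm10) encodes the cytochrome c of testis. It had 0.747 FPKM in the library labelled KO and 2.48 FPKM in that labelled WT, from 7 and 23 fragments in the libraries labelled KO and WT, a ratio of 0.301 (0.109 to 0.725). Cox6b2 (ENSMUSG00000051811, chromosome 7, 4751792 to 4753094) encodes the testis form of a subunit on the cytochrome c side of complex IV. It had 5.74 FPKM in the library labelled KO (91 fragments) and 12.7 FPKM in that labelled WT (200 fragments), a ratio of 0.451 (0.348 to 0.580). Cox8c (ENSMUSG00000043319, chromosome 12, 102899316 to 102900526), the testis form of Cox8, had 5.65 FPKM in the library labelled KO (37 fragments) and 10.5 FPKM in that labelled WT (68 fragments), a ratio of 0.539 (0.351 to 0.816). The remaining testis form, Cox7b2, had 1.42 FPKM in the library labelled KO and 1.69 FPKM in that labelled WT, from 11 and 13 fragments, with an interval of 0.340 to 2.03. So 3 of the 4 (75%) were lower in the library labelled KO, against 17.6% of all genes, and for Cox7b2 a difference was not detectable at this depth. The same 3 were lower after rescaling to TPM, which moves KO down and so could not undo these calls, and where 45.4% of all genes were lower.

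Set against the general genes, the share of the testis form was lower in the library labelled KO for each pair. Cox6b2 made 3.79% of the summed FPKM of Cox6b2 and Cox6b1 in the library labelled KO and 9.95% in that labelled WT, the general gene being higher and the testis gene lower. Cyct made 2.69% of the sum with Cycs in the library labelled KO and 8.84% in that labelled WT. Cox8c made 1.85% of the sum with Cox8a in the library labelled KO and 3.66% in that labelled WT, and Cox7b2 2.70% of the sum with Cox7b in the library labelled KO and 3.36% in that labelled WT. The size of these shares, but not their direction between libraries, rests on the deposited gene lengths. Per principal transcript Cox6b2 had 13.7 in the library labelled KO and 30.4 in that labelled WT. Cox6b1 then had 167 in the library labelled KO and 132 in that labelled WT. No other gene of the table overlapped the 4 testis genes.

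**Figure D3:**
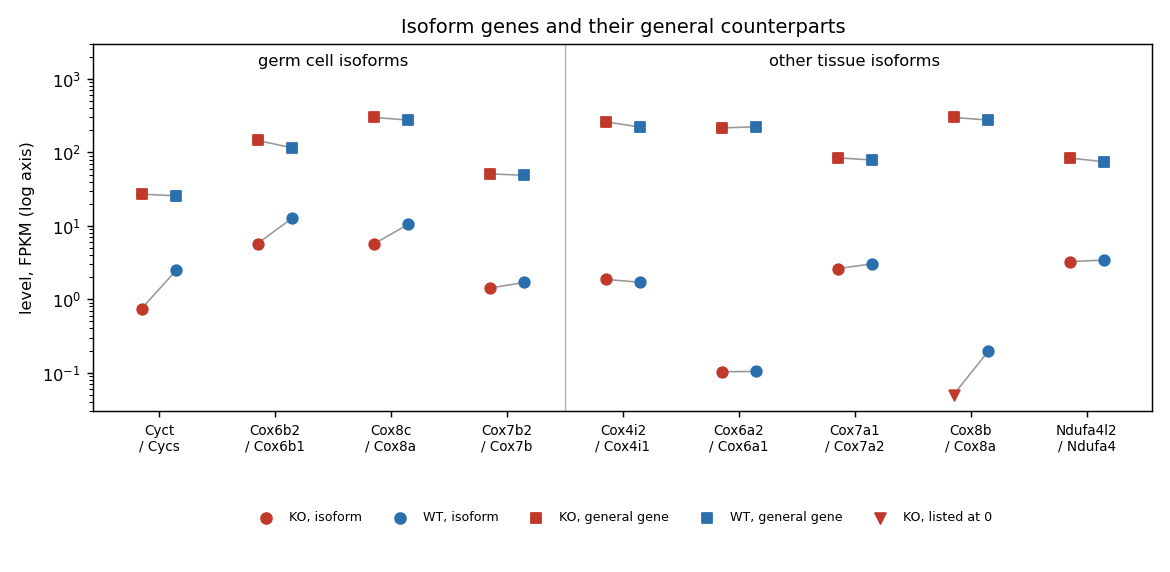
Level in FPKM (log axis) of isoform genes (circles) and their general counterparts (squares) in the library labelled KO (left, red) and that labelled WT (right, blue); the triangle marks Cox8b, at 0 in the library labelled KO, drawn at 0.05 FPKM, a position and not a level. General genes lie far above their isoforms, and, Cox8b aside, Cyct, Cox6b2 and Cox8c show the steepest lines.

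Most measured markers of meiotic germ cells were lower like these genes, and most of those of later germ cells were higher. Of 13 markers of meiotic spermatocytes, 6 were measured, of which 4 (66.7%) were lower and none higher, against 17.6% and 24.6% of all genes. The whole list of spermatocyte markers summed to 29.8 FPKM in the library labelled KO and 55.5 FPKM in that labelled WT. Ldhc, the lactate dehydrogenase of germ cells and the most abundant of them, was at 20.5 FPKM in the library labelled KO and 38.3 FPKM in that labelled WT, while Mei1 had 0 and 4 fragments in the libraries labelled KO and WT. Of 14 markers of spermatids, 13 were measured, of which 12 (92.3%) were higher and none lower, against the same shares of all genes. The list of spermatid markers summed to 224 FPKM in the library labelled KO and 64.1 FPKM in that labelled WT. Prm2, a protamine, was at 54.1 FPKM in the library labelled KO and 5.21 FPKM in that labelled WT. Slc25a31, the ADP/ATP carrier of germ cells and no member here, had 6 fragments in the library labelled KO and 25 in that labelled WT. All 15 cell cycle markers were lower too, against 17.6% of all genes, and summed to 103 FPKM in the library labelled KO and 162 FPKM in that labelled WT. The part of these cells in the isoform ratios was not tested.

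To show how the promoters of both kinds of gene differ in letters, the 250 bases upstream of the RefSeq start are given for the cytochrome c pair and the Cox6b pair (GRCm38.p6, all on the minus strand, read in the direction of the gene). Capitals mark exact matches, on either strand, to GCATGCGC (a core of the NRF1 site), TGACGTCA (the cyclic AMP response element), CCAAT (the CCAAT box) and CCGGAAG (an ETS site).
Cycs, chr6:50566570-50566819: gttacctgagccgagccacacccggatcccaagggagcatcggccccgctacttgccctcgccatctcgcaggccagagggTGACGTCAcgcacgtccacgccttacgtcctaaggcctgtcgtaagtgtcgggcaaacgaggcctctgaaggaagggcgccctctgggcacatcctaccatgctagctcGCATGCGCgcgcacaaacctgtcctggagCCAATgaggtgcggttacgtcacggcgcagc
Cyct, chr2:76360454-76360703: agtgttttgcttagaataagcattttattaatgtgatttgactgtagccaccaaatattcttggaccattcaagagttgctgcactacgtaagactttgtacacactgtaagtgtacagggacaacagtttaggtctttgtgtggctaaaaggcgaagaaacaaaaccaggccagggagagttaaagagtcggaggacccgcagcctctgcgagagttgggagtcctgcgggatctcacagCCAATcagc
Cox6b1, chr7:30626115-30626364: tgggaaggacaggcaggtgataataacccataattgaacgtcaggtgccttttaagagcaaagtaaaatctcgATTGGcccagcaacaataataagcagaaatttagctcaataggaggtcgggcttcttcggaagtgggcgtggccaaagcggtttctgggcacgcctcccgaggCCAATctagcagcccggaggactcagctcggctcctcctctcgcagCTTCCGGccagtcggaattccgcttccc
Cox6b2, chr7:4753095-4753344: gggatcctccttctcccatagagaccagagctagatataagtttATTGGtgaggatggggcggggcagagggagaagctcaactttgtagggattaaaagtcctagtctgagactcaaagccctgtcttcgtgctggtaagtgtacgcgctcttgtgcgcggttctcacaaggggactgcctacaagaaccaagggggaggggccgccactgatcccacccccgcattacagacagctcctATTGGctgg

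The Cycs window held the NRF1 core, the cyclic AMP response element and a CCAAT box, and the Cyct window the CCAAT box alone. The Cox6b1 window held 2 CCAAT boxes and 1 ETS site, and the Cox6b2 window 2 CCAAT boxes. RefSeq promoter windows were matched for 76 of the 96 symbols. The NRF1 core was in 10 of these (13.2%), against 2.56% of 27025 genes with a window of this length, and CCGGAAG in 14 (18.4%), against 7.83%. The response element was in 5 (6.58%), against 1.77%, and CCAAT in 35 (46.1%), against 37.5%. The 27025 genes were not limited to protein-coding or measured genes, unlike nearly all members, so these shares are not matched for expression. Matches describe letters in these windows and not binding.

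The isoforms of other tissues were low in both libraries. Cox4i2, the form of lung and low oxygen, was at 1.86 FPKM in the library labelled KO and 1.70 FPKM in that labelled WT, under 1% of its sum with Cox4i1 in both. Ndufa4l2, induced by low oxygen, was at 3.26 FPKM in the library labelled KO and 3.42 FPKM in that labelled WT, and its gene overlaps Shmt2 on the opposite strand. Cox7a1, of striated muscle and brown fat, was at 2.61 FPKM in the library labelled KO and 3.04 FPKM in that labelled WT, from 20 and 23 fragments. The remaining muscle forms were nearly absent, Cox6a2 with 1 fragment in each library and Cox8b with 0 in the library labelled KO and 1 in that labelled WT. No difference in these 5 genes was detectable at this depth. Of 12 striated muscle markers 5 were measured, and the list summed to 55.8 FPKM in the library labelled KO and 48.3 FPKM in that labelled WT. Only 1 of them, Myh4, had no fragment in either library. The brown fat gene Ucp1 had 6 fragments in the library labelled KO and 2 in that labelled WT.

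Subunits encoded by mitochondrial DNA had larger ratios than their nuclear partners. Of 12 measured, 10 (83.3%) were higher and none lower, against 24.6% and 17.6% of all genes, and 46.0% and 16.1% at a mean of at least 20 FPKM. Their median log2 ratio was 0.39, and 0.18 after rescaling to TPM. mt-Co1, the catalytic subunit of complex IV, was at 5590.0 FPKM in the library labelled KO and 3853 FPKM in that labelled WT, while mt-Nd3, at 12.7 FPKM in the library labelled KO and 17.6 FPKM in that labelled WT, had an interval that included 1. Whether the genomes differ in their ratio was not tested, as both sets come from the same pair of libraries.

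Some other lists lay as far above all genes as the members, whose median log2 ratio exceeded that of all genes by 0.06. This offset was 0.058 for mitochondrial ribosomal proteins, 0.073 for carriers and uncouplers and 0.085 for targets of the low-oxygen response. It was 0.0031 for citric acid cycle genes, 0.025 for further assembly factors and −0.045 for biogenesis regulators. For the counts that follow, all as deposited, 24.6% of all genes were higher and 17.6% lower, and at a mean of at least 20 FPKM 46.0% and 16.1%. Of 77 measured mitochondrial ribosomal protein genes, 18 were higher and 3 lower (23.4% and 3.90%, median 0.08), so the share of higher genes was near that of all genes. Mrpl36 was at 23.1 FPKM in the library labelled KO and 17.3 FPKM in that labelled WT. Of 17 citric acid cycle genes, 5 were higher and 1 lower (29.4% and 5.88%, median 0.03). The lower one was Idh2 at 55.8 FPKM in the library labelled KO and 62.5 FPKM in that labelled WT. Of 41 measured assembly factors from a further list, 6 were higher and 3 lower (14.6% and 7.32%, median 0.05). Bcs1l, which inserts the iron-sulfur protein of complex III, was at 5.20 FPKM in the library labelled KO and 6.73 FPKM in that labelled WT. Among 16 measured regulators of mitochondrial biogenesis 2 were higher and 2 lower (12.5% each, median −0.02). The nuclear receptor gene Esrra was at 14.6 FPKM in the library labelled KO and 11.7 FPKM in that labelled WT. Of 8 measured carriers and uncouplers 5 were higher and 1 lower (62.5% and 12.5%, median 0.10), led by Ucp2 at 64.1 FPKM in the library labelled KO and 48.2 FPKM in that labelled WT. Of 14 targets of the low-oxygen response 7 were higher and 1 lower (50% and 7.14%, median 0.11). Vegfa was at 25.5 FPKM in the library labelled KO and 14.7 FPKM in that labelled WT, whereas Cox4i2 and Ndufa4l2 had intervals that included 1.

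**Figure D4:**
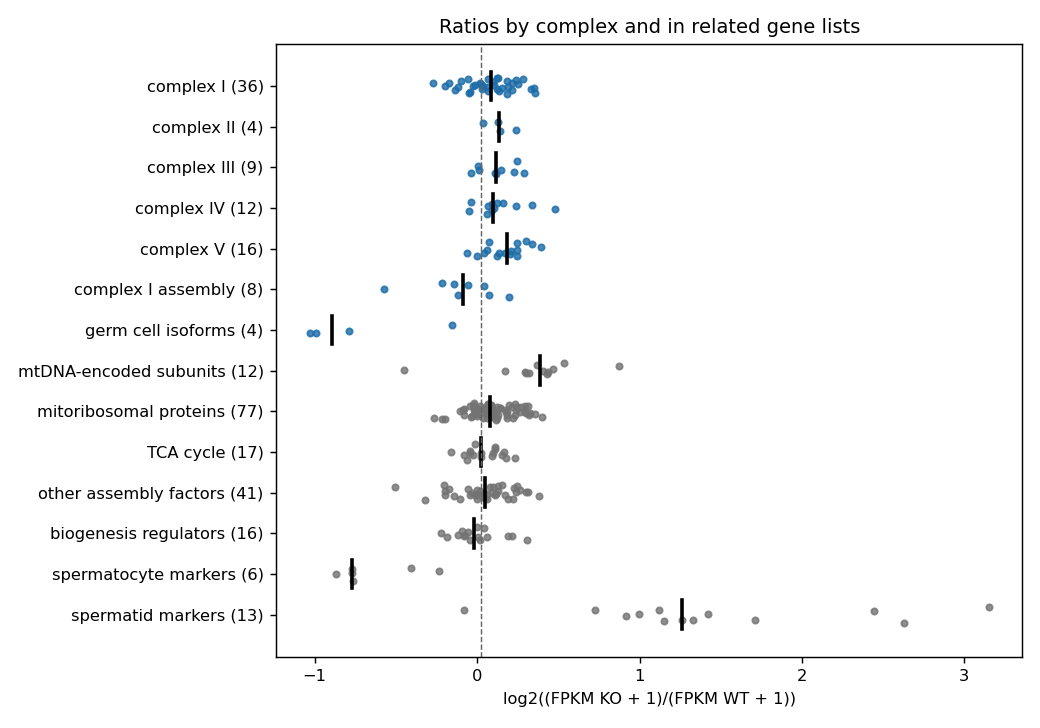
log2((FPKM KO + 1)/(FPKM WT + 1)) of each measured gene (points) by complex (blue) and in related lists (grey), with the number of genes in brackets, medians as black bars and the median of all protein-coding genes (0.02) as a dashed line. The medians of the 5 complexes lie just right of the dashed line (with TPM they stay right of the median of all genes), the germ cell isoforms and spermatocyte markers to its left, and spermatid markers far to its right.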

How the data were processed

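Per the labels' protocols, a TruSeq RNA kit was used, with 1 µg of input RNA. Builds mm10 and hg38 and the aligner HISAT2 2.0.5 are listed in the submitters' processing notes; the counting program, its strand setting and its treatment of multiply mapped reads are not given in the sources used here. The deposited table holds 1 FPKM value per gene and library. Multiplying each FPKM by its gene length and dividing by the step of its library gave whole fragments for 100% of nonzero values (tolerance 0.01); no further scaling was applied. A single fragment over 1 kb equals 0.0699 FPKM (KO) and 0.0706 FPKM (WT).

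Ratios on the log2 scale added 1 FPKM to both values, so changes of low genes are understated, and were called 2-fold at 1 in either direction. In other lists a symbol on several rows was read from the row of higher mean. Coordinates are those of the table, and 91 of 97 member rows had the same ones in GENCODE M21. Sequences are from RefSeq (GRCm38.p6). Python 3.11.15, numpy 2.4.6, pandas 2.3.3 and scipy 1.17.1 were used, and the steps were tested on simulated data. Many members have processed pseudogenes, with which reads may be shared. Of the members, 27 overlapped another measured gene, 25 of them on the opposite strand, where reads cannot be told apart without strand.

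Members and lists were chosen with earlier results of these data known. Genes named were all isoform pairs, the core subunits of complex I, all of complex II, the highest and lowest subunit of each complex, the 6 highest and 6 lowest ratios among members with a mean of at least 5 FPKM, and any at least 2-fold. From other lists up to 3 members with the largest ratios at that mean were eligible, and others are named for their role. One member is not reported by name here. Alternatives were other pseudocounts (0.5 and 5 FPKM), filters and scalings.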

Additional observations from a re-analysis of the deposited data

Results flagged for a closer look

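Among the 13 rows outside the protein-coding members that carry the same gene names, 8 had fragments. As deposited, 2 of these rows were higher in the library labelled KO beyond counting error. They are listed because the comparisons above do not use them. For scale, 24.6% of the genes in the protein-coding background met the same limit. A count of 2 is too small to set against that share. Ndufb1-ps, annotated as a noncoding RNA, stood at 17.1 FPKM in the library labelled KO and 13.1 FPKM in that labelled WT, a ratio of 1.30 (1.09 to 1.57). Ndufab1-ps, a processed pseudogene, stood at 13.9 FPKM in the library labelled KO and 9.65 FPKM in that labelled WT, a ratio of 1.44 (1.04 to 2.01). Its parent Ndufab1, a complex I subunit and acyl carrier protein, was at 4.56 FPKM in the library labelled KO and 4.48 FPKM in that labelled WT. Rescaling to TPM shifts KO against WT by −0.20 in log2, after which the intervals of Ndufb1-ps and Ndufab1-ps would both include 1. How reads were split between parent and copy was not tested.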

How the results depend on the processing

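No paired analysis was possible because each genotype has 1 library, and for the same reason no replicate could be left out. The limits are the single library per genotype and, for isoforms, few fragments. The count of members at least 2-fold lower, 1 as reported, was 2 with a pseudocount of 0.5 FPKM, 0 with 5 FPKM, 0 with a filter at 20 FPKM, 3 after rescaling to TPM, and 2 when scaled by total fragments or by the trimmed mean of M values. The count higher beyond counting error, 35 as reported, was 6 after rescaling to TPM (6.38%, against 7.81% of all genes) and 21 by total fragments (22.3%, against 14.5%). The count lower, 8 as reported, was 5 with a filter at 5 FPKM (6.02%, against 16.4%), 3 with one at 20 FPKM (4.69%, against 16.1%), 32 after rescaling to TPM (34.04%, against 45.4%) and 16 by total fragments (17.0%, against 30.4%).

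After rescaling to TPM the median log2 ratio was −0.11 for members, −0.11 for complex I, −0.064 for complex II, −0.086 for complex III, −0.10 for complex IV, −0.0073 for complex V and 0.18 for subunits encoded by mitochondrial DNA, which had 0.29 by total fragments. The median of all genes moved by −0.19 with TPM and by −0.08 by total fragments. Relative to it the members stood at 0.06 under both, and at 0.032 with the filter at 20 FPKM.

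With TPM, among the named genes called higher as deposited, log2 ratios changed sign for Ndufb11 (−0.020), Sdhd (−0.071), Cox8a (−0.080), Atp5a1 (−0.16, and −0.050 by total fragments), Ndufs7 (−0.0074), Sdhb (−0.058), Ndufa4 (−0.041) and Atp5g3 (−0.080). Among those with intervals that included 1, Sdha (−0.16), Cycs (−0.12), Uqcrc1 (−0.19), Cox5a (−0.091), Ndufs3 (−0.13), Cox7a2 (−0.11), Cox7b (−0.13) and Cox4i2 (−0.060) also changed sign. Median levels over the principal transcript, in place of the deposited length, were for KO and WT 57.4 and 52.9 in complex I, 62.4 and 56.8 in complex II, 88.5 and 88.1 in complex III, 212 and 171 in complex IV, and 155 and 139 in complex V. That length and the filter at 20 FPKM were chosen after seeing the data.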
